A study of Mus musculus with 24 samples.

Results

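Guanylate-binding proteins (GBPs) are large GTPases whose genes are switched on by interferons, and 10 of the 24614 genes in the count table belong here: Gbp2, Gbp3, Gbp4, Gbp5, Gbp6, Gbp7, Gbp8, Gbp9, Gbp10 and Gbp11, chosen by gene name. Their levels were read in ID8, a mouse ovarian cancer cell line. All cells carried knockouts of Trp53 and Brca2, so both controls and clones lacked these genes. The controls were untransfected cells (WT) and cells given an empty CRISPR vector (EV), and the other lines were 1CF10 and 2CD7, single clones with a CRISPR knockout of Ifnar1. Every line was studied untreated and after 3 h with 10000 IU/ml of recombinant mouse interferon beta (IFN beta), and each of the 8 combinations has 3 libraries. These are labelled as technical replicates treated on 1 date, so p-values measure technical spread, and a difference between lines cannot be told apart from a difference between clones or cultures.

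GBPs belong to the dynamin superfamily: they bind GTP, form dimers and larger assemblies, and coat vacuoles or bacteria inside the cell, often together with the immunity-related GTPases (IRGs). IFN beta binds a receptor built from IFNAR1 and IFNAR2, the kinases JAK1 and TYK2 then act on transcription factors such as STAT2, which together with IRF9 is part of the complex that binds the interferon-stimulated response element (ISRE) in promoters. The gamma-activated site (GAS) is a different element, known from the response to interferon gamma, and IRF1 binds ISRE-like sequences. In tumour cells, GBP transcripts are a common readout of interferon signalling.

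The members lie in 2 clusters in GENCODE M21 (GRCm38). Gbp5, Gbp7, Gbp3 and Gbp2, with the related gene Gbp2b that is not a member, occupy 144.0 kb of chromosome 3 (142493978 to 142638008) on the plus strand. Gbp8, Gbp9, Gbp4, Gbp10, Gbp6 and Gbp11 occupy 332.3 kb of chromosome 5 (105014150 to 105346472) on the minus strand, where the spans of Gbp4, Gbp8 and Gbp9 overlap and Gbp11 is annotated as a polymorphic pseudogene. The most abundant member, Gbp2 (ENSMUSG00000028270), spans 142620602 to 142638008 on chromosome 3, Gbp3 (ENSMUSG00000028268) 142560026 to 142573209 and Gbp7 (ENSMUSG00000040253) 142530342 to 142550149. On chromosome 5, Gbp4 (ENSMUSG00000079363) spans 105115767 to 105139586, Gbp6 (ENSMUSG00000104713) 105270702 to 105293698 and Gbp9 (ENSMUSG00000029298) 105077630 to 105139539. Promoters, taken from RefSeq on GRCm38.p6 as 300 bases that end 50 bases after the start, were found for the 4 chromosome 3 members and for Gbp2b. Promoters of Gbp4, Gbp6, Gbp8, Gbp9, Gbp10 and Gbp11 were not in the table used here. The stretches below are shown because each holds the ISRE core, GAAANNGAAA on either strand, and the capitals mark that match (on the plus strand it reads as the reverse complement).
Gbp2 (chr3:142620579-142620638, plus strand): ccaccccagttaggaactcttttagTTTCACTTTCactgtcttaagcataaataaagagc
Gbp3 (chr3:142559974-142560039, plus strand): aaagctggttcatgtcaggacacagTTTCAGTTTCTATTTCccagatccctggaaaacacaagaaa
Gbp7 (chr3:142530258-142530317, plus strand): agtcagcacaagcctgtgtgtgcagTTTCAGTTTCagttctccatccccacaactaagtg
Gbp5 (chr3:142496744-142496803, plus strand): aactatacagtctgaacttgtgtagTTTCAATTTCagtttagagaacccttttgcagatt
Gbp2b (chr3:142594685-142594744, plus strand): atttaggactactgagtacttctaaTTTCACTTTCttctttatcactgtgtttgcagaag

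The Gbp2 match lay 50 to 59 bases upstream of the RefSeq start, and that of Gbp7 44 to 53 bases upstream. Gbp3 held 2 overlapping matches, at 36 to 45 and 30 to 39 bases upstream, which share letters in the run printed above, and a second RefSeq promoter of Gbp3 held none. The matches of Gbp2b and Gbp5 lay farther out, at 128 to 137 and 156 to 165 bases upstream. GENCODE starts Gbp2 upstream of RefSeq, at 142620602, so that the Gbp2 match (142620604 to 142620613) falls inside the GENCODE gene. The same holds for the Gbp5 match (142496769 to 142496778), as GENCODE starts Gbp5 at 142493978. Of all 32851 RefSeq mouse promoters of this length, 3.44% held the ISRE core. The GAS core TTCNNNGAA, which reads the same on both strands, was in 8.3% of promoters and had 2 matches each in Gbp5 and Gbp7, 1 of them with the letters TTCTCAGAA in both genes. A match describes these letters and is not evidence of binding.

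**Figure D1:**
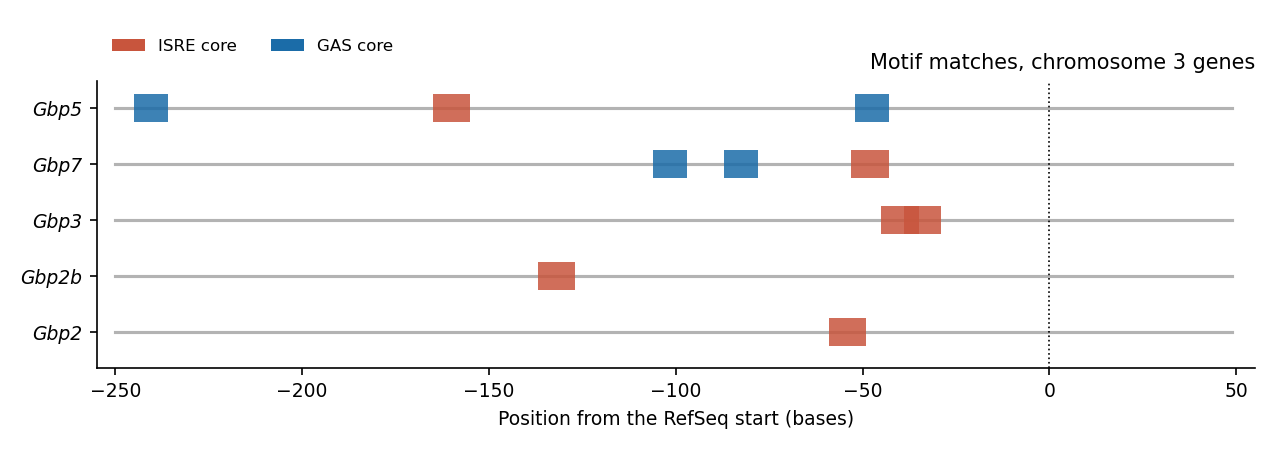
Positions of ISRE core (red) and GAS core (blue) matches in the RefSeq promoters of the chromosome 3 genes, with distance from the RefSeq start in bases on the x axis and the start at the dotted line. The ISRE matches of Gbp2, Gbp3 and Gbp7 lie 30 to 59 bases upstream of the start, and those of Gbp2b and Gbp5 lie 128 to 165 bases upstream.

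Values are unique molecular identifiers (UMIs), each standing for 1 captured mRNA molecule tagged at its 3′ end, or CPM, the UMIs of a gene scaled to a common library total. Libraries held 1972192 to 3097331 UMIs. Summed CPM of 9 mesothelial and epithelial markers was 2400 to 4030 in all libraries, while 13 leukocyte markers summed to 0.803 to 4.54 CPM, with Ptprc, Cd3e, Adgre1, Flt3, Lyz2, Nkg7 and Tyrobp at 0 or not in the table. Ifnar1 mRNA is counted at its 3′ end and its counts therefore do not check the knockout: untreated Ifnar1 was at 11.5 ± 4.5 (SD, n = 3) CPM in WT, at 11.9 ± 0.99 in EV, at 8.9 ± 2.6 in the clone 1CF10 and at 7.39 ± 2.7 in the clone 2CD7. A total of 3 libraries stood above the others of their group in interferon genes. In untreated WT library 2 the GBP sum was 39.0 CPM against 15.2 and 13.1, and Isg15 was 33.0 against 7.16 and 8.94. In untreated EV library 3 Isg15 was 32.1 CPM against 12.04 and 10.1. In treated 2CD7 library 2 the sum of the IRG list (IRGs and the very large GTPase Gvin1) was 85.4 CPM against 41.1 and 42.2.

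A gene was tested if it reached about 3.98 CPM in enough libraries (edgeR's filterByExpr), which 6 of the 10 members did, and it was called at an adjusted p below 0.05 in edgeR's quasi-likelihood test. Gbp4, Gbp6, Gbp7 and Gbp9 reached that level in treated control libraries alone, so that they had to differ with treatment. Gbp2 reached it in 11 of 12 untreated libraries, and Gbp3 in 3, all of them controls. The first question was how the controls respond. All 6 tested members were called higher after IFN beta in WT, where 5.01% of the 11698 tested genes were, and in EV, where 3.99% were; as 4 of them passed the filter through treated libraries, these counts describe the members and support nothing further.

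Gbp2, which encodes a prenylated GBP that is recruited to Toxoplasma vacuoles, was the most abundant member. Untreated WT libraries held 20, 38 and 19 Gbp2 UMIs and treated ones 1353, 1274 and 1222; untreated EV libraries held 19, 14 and 25 and treated ones 767, 960 and 799. Every treated library lay far above every untreated one. In CPM the mean rose from 11.6 ± 6.8 (SD, n = 3) to 484.8 ± 37 in WT and from 7.83 ± 2.3 to 334.6 ± 19 in EV. On the log2 scale the rise was 5.51 ± 0.16 (SE) for WT and 5.45 ± 0.17 for EV, with edgeR adjusted p = 8.02e-25 and 1.2e-23.

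Gbp3, whose product has also been seen on Toxoplasma vacuoles, held 4, 25 and 7 UMIs in untreated WT and 296, 250 and 274 in treated WT. In EV the counts were 10, 8 and 20 untreated and 179, 237 and 179 treated. The groups did not overlap, and the highest untreated libraries were WT library 2 and EV library 3, which also had the most Isg15. The rise was 4.37 ± 0.34 (log2) for WT and 3.97 ± 0.35 for EV (edgeR adjusted p = 1.01e-08 and 7.91e-08). Without these and treated 2CD7 library 2, Gbp3 rose by 5.61 in WT and 4.46 in EV (edgeR adjusted p = 1.03e-26 and 5.51e-23).

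Gbp7, whose product has been tied to assembly of the phagocyte oxidase, held 4, 6 and 1 UMIs in untreated WT and 168, 170 and 145 after treatment. EV went from 2, 1 and 4 UMIs to 137, 160 and 155. Treated levels overlapped between the controls, at 60.7 ± 2.8 (SD, n = 3) CPM in WT and 60.1 ± 5.4 in EV. Gbp7 rose by 5.29 ± 0.28 on the log2 scale in WT and by 5.96 ± 0.31 in EV. Without the 3 libraries that stood apart the rise of Gbp7 was 5.94 in WT and 6.56 in EV, and without untreated WT library 3 it was 4.70 in WT.

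On chromosome 5, Gbp4 held 4, 4 and 7 UMIs in untreated WT and 126, 90 and 116 in treated WT. EV held 2, 5 and 1 UMIs of Gbp4 untreated and 93, 145 and 87 treated. Gbp4 rose by 4.33 ± 0.37 (log2) in WT and by 5.29 ± 0.42 in EV (6.09 without untreated EV library 2), and its treated libraries overlapped between the lines. Gbp6 held 1, 1 and 2 UMIs in untreated WT, 95, 96 and 79 in treated WT, 2, 0 and 3 in untreated EV and 39, 57 and 39 in treated EV. The summed counts of Gbp6 gave a 60.3-fold rise in WT (exact 95% counting interval 23.3 to 223) and 26.6-fold in EV (11.1 to 83.1). In edgeR, Gbp6 rose by 4.67 ± 0.39 (log2) in EV, and by 5.35 without untreated EV library 3. Gbp9 held 1, 2 and 2 UMIs in untreated WT, 68, 53 and 45 in treated WT, 4, 4 and 3 in untreated EV and 43, 54 and 40 in treated EV. Gbp9 rose by 4.84 ± 0.41 (log2) in WT and by 3.61 ± 0.36 in EV (4.64 with libraries thinned to one depth). No untreated control library overlapped with a treated one for these 3 genes. The largest edgeR adjusted p over the 6 members and both controls was 7.91e-08.

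The remaining 4 members were counted at 0 to 12 UMIs per library and were not tested. Gbp5, which encodes a prenylated GBP linked to inflammasome activation, was at 0 UMIs in all untreated and all clone libraries and held 9, 7 and 4 UMIs in treated WT and 1, 12 and 3 in treated EV. With 3 UMIs per untreated group taken as the floor, treated WT was at least 5.96-fold higher and treated EV at least 5.25-fold higher. Gbp8 held 5, 5 and 5 UMIs in treated WT and 3, 2 and 4 in treated EV, at least 4.47-fold and 2.95-fold above the floor for the untreated controls, which were at 0. In the clones Gbp8 held 0, 0 and 0 UMIs in untreated and 2, 1 and 0 in treated 1CF10, and 0, 0 and 2 in untreated and 1, 0 and 0 in treated 2CD7. Gbp11 held 3, 5 and 3 UMIs in treated WT and 1, 4 and 3 in treated EV, at least 3.28-fold and 2.62-fold above that floor. Gbp10 held 0, 2 and 4 UMIs in treated WT against 0, 1 and 0 untreated, a ratio of 5.36 (exact 95% counting interval 0.65 to 247), and 1, 2 and 3 in treated EV against 0, at least 1.97-fold. All 4 genes were thus seen mainly in treated controls, with too few UMIs to rank them. With no filter on low counts, edgeR also called Gbp5, Gbp8 and Gbp11 in WT (adjusted p = 0.000626, 0.00602 and 0.0379) and Gbp5 in EV (0.00279). Gbp2b, the chromosome 3 gene outside the set, held 3, 2 and 0 UMIs in treated WT and 0 elsewhere.

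**Figure D2:**
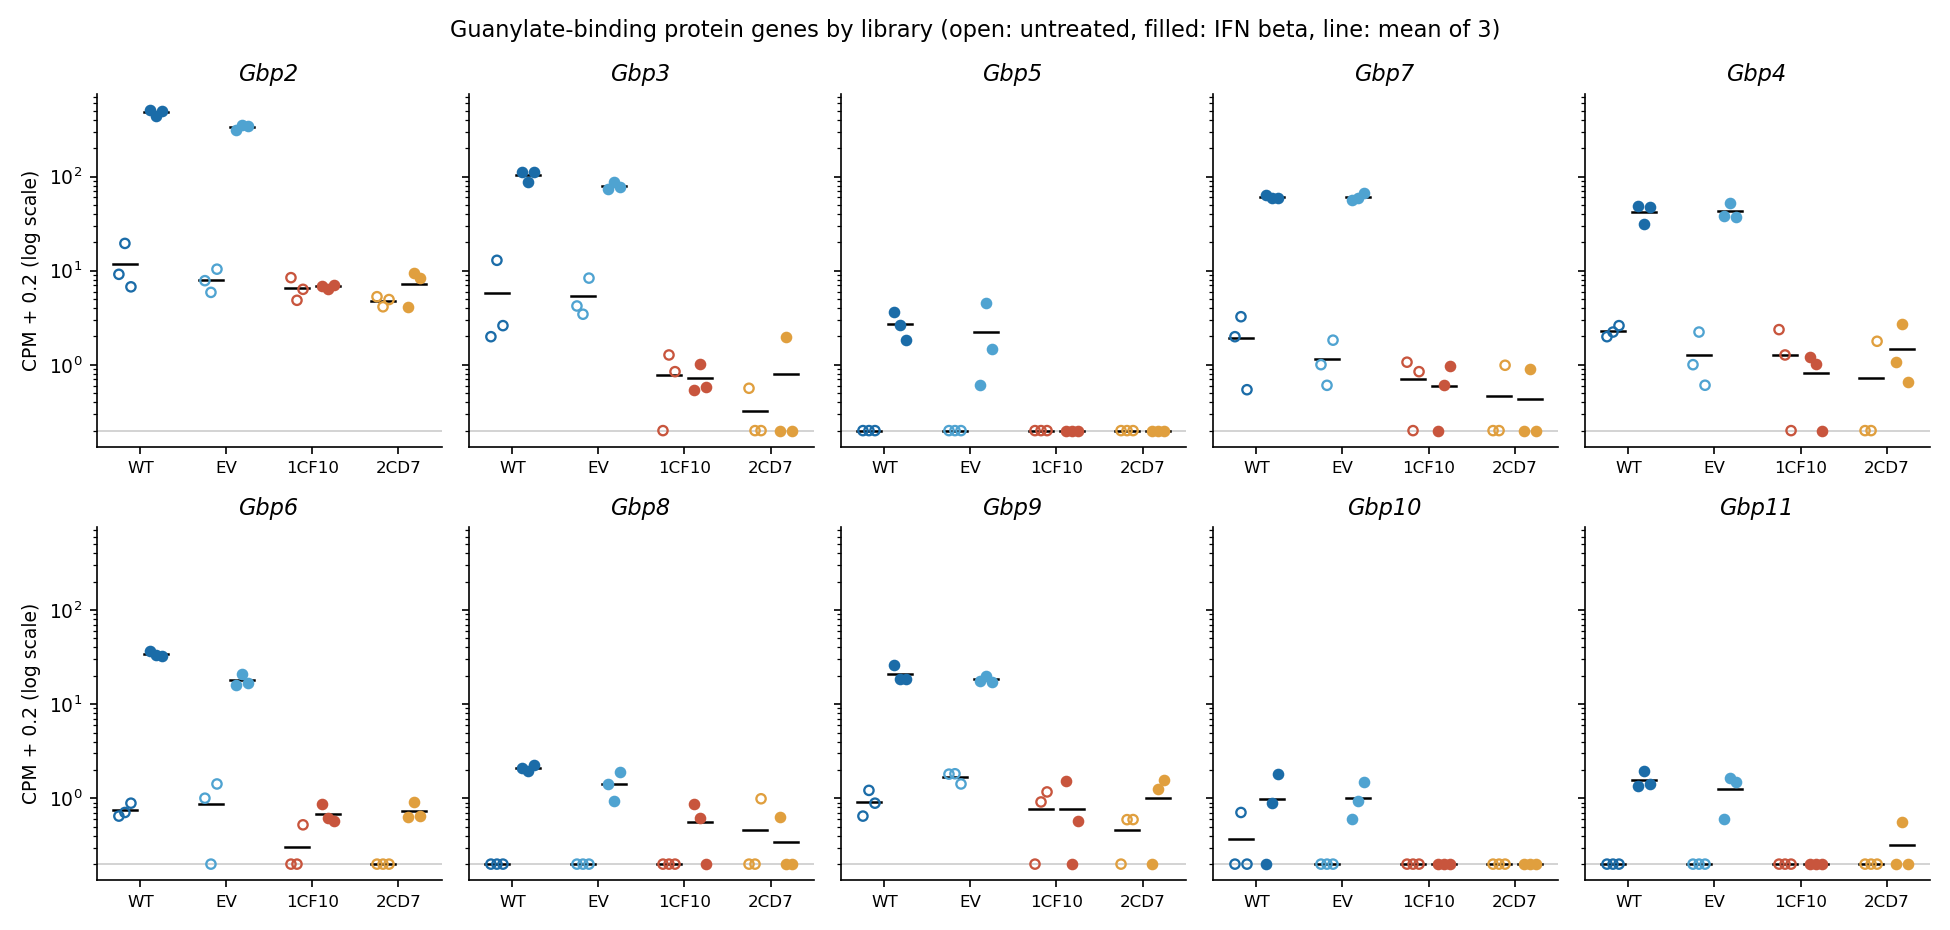
CPM of the 10 genes in every library, with 0.2 added so that 0 can be drawn (grey line) on the log axis; open circles are untreated, filled circles IFN beta and bars the mean of 3. Treated WT and EV libraries stand above all others for the 6 tested genes, while both clones stay at their untreated level or at a handful of UMIs.

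Sequence limits what the single genes can show on chromosome 5. In the last 500 bases of the annotated transcripts, 64.5% of the 101-base windows of Gbp6 and 100% of those of Gbp10 also occur in a transcript of the other or of Gm43302, a predicted gene of this cluster. Gm43302 held 11, 5 and 8 UMIs in treated WT, 1, 7 and 3 in treated EV, 0, 1 and 0 in treated 1CF10 and 0 in all other libraries. For the other 8 members and Gbp2b no window was shared (0%), although whole transcripts of Gbp4 and Gbp9 were 82.7% identical and those of Gbp6 and Gbp11 84.0%. How the counting treated shared windows is not given, and its part in the values of Gbp6 and Gbp10 was not tested.

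Treated members differed in abundance by a wide margin. Because a UMI is counted once per molecule, no correction for transcript length was made, although capture can differ between genes. In treated WT the order by CPM was Gbp2 (484.8), Gbp3 (103.6 ± 14), Gbp7 (60.7), Gbp4 (42.1 ± 9.4), Gbp6 (33.9 ± 2.0) and Gbp9 (20.9 ± 4.3). Of these neighbours only Gbp4 and Gbp6 overlapped between libraries (31.3 to 47.9 and 32.2 to 36.1 CPM). In treated EV the order was Gbp2 (334.6), Gbp3 (78.6 ± 6.8), Gbp7 (60.1), Gbp4 (42.6 ± 8.8), Gbp9 (18.1 ± 1.4) and Gbp6 (17.8 ± 2.6), and only Gbp9 and Gbp6 overlapped. Gbp2 made up 64.5% ± 0.77 (SD, n = 3) of all GBP UMIs in treated WT and 60.1% ± 1.2 in treated EV, and the chromosome 3 members together 86.6% ± 0.57 and 85.4% ± 1.4.

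**Figure D3:**
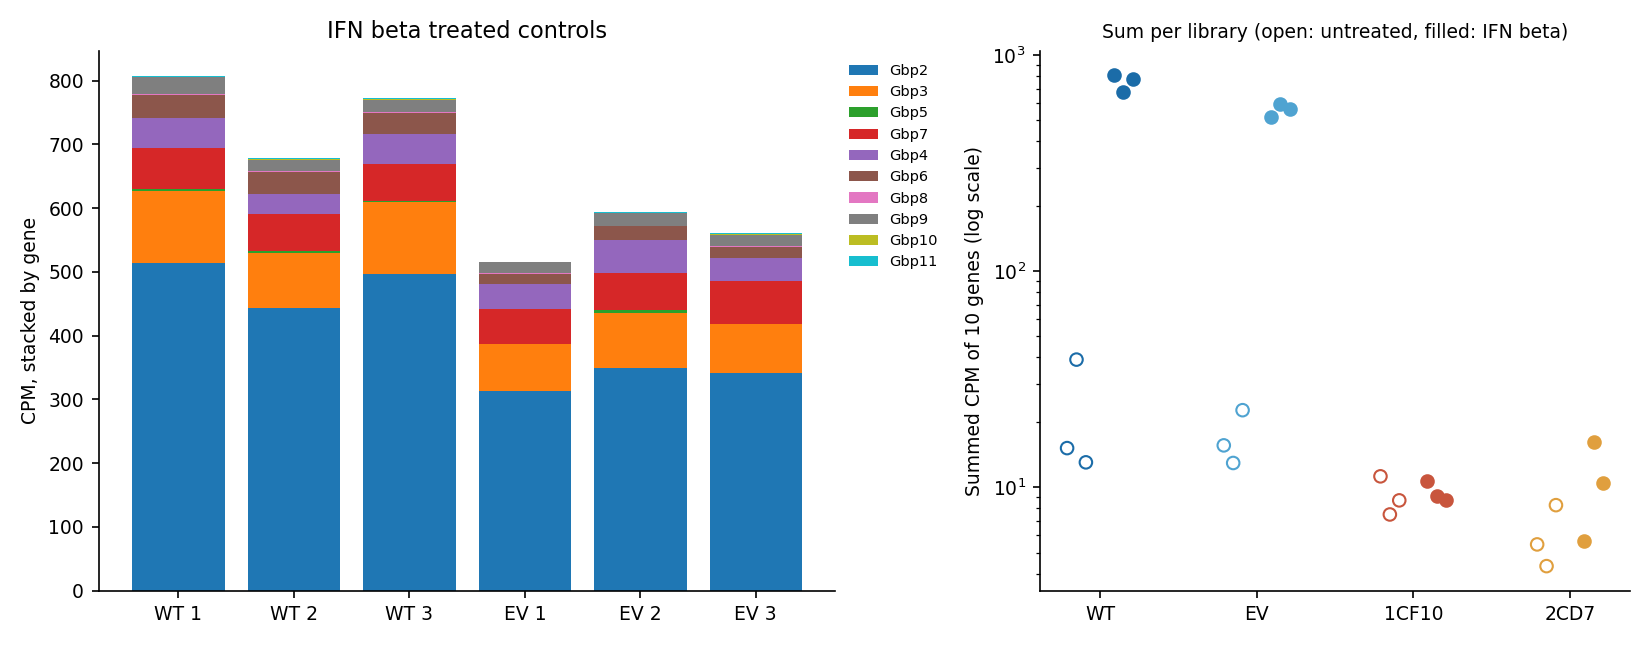
Left, CPM of the 10 genes stacked for each treated control library; right, the summed CPM of the 10 genes in every library on a log axis (open, untreated; filled, IFN beta). Gbp2 is the largest block in each bar, the treated controls sum to 516 to 807 CPM, and every clone library sums to at most 16.3 CPM.

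The next question was whether cells with an Ifnar1 knockout respond. Neither clone had a member called by edgeR, and 0% of all tested genes were called higher in 1CF10, 0% in 2CD7 and 0% over both clones pooled. At an unadjusted p below 0.05, edgeR gave 0 members in 1CF10, 1 in 2CD7 and 1 over both clones, the last 2 being Gbp6, and DESeq2 and limma-voom called 0. Gbp2 held 19, 13 and 19 UMIs in untreated and 20, 15 and 18 in treated 1CF10. In 2CD7 it held 14, 10 and 12 untreated and 9, 26 and 18 treated. Treated and untreated libraries overlapped in both clones, with treated 2CD7 library 2, in which the sum of the IRG list was also highest, above the rest. The log2 fold change of Gbp2 was 0.07 ± 0.33 in 1CF10 (edgeR adjusted p = 0.998) and 0.64 ± 0.36 in 2CD7 (0.997). Over both clones it was 0.35 with a 95% interval from -0.15 to 0.86, which lies far below the fold changes of the controls.

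For the other members the clones held so few UMIs that only large changes could have been seen. Gbp3 held 0, 3 and 2 UMIs in untreated and 1, 2 and 1 in treated 1CF10, and 1, 0 and 0 in untreated and 0, 5 and 0 in treated 2CD7. Gbp7 held 4 and 3 UMIs over untreated and treated 1CF10, and 2 and 2 over 2CD7. Gbp4 held 8 and 5 over 1CF10 and 4 and 10 over 2CD7, and Gbp9 held 5 and 5 over 1CF10 and 2 and 6 over 2CD7. These counts overlapped between treated and untreated libraries. Over both clones the treated to untreated ratio was 1.57 (exact 95% counting interval 0.498 to 5.35) for Gbp3, 0.87 (0.21 to 3.42) for Gbp7, 1.31 (0.57 to 3.05) for Gbp4 and 1.64 (0.581 to 4.99) for Gbp9.

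Gbp6 was the 1 tested member whose treated and untreated clone libraries did not overlap in CPM. In UMIs they met: untreated 1CF10 library 3 (0.323 CPM) and treated 1CF10 library 3 (0.380 CPM) each held 1, and their totals differed. The share of all tested genes that separate in this way was not computed, so the separation is a description. Treated 1CF10 held 2, 1 and 1 UMIs of Gbp6 and treated 2CD7 1, 2 and 1, while 5 of the 6 untreated clone libraries held 0 and 1 held 1. The ratio over both clones, 8 UMIs against 1, was 8.35 (exact 95% counting interval 1.12 to 371), with edgeR p = 0.00577 before and 0.983 after adjustment over all tested genes. The 8 UMIs compare with 405 in the treated controls, a ratio of 0.0199 (0.00855 to 0.0397).

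**Figure D4:**
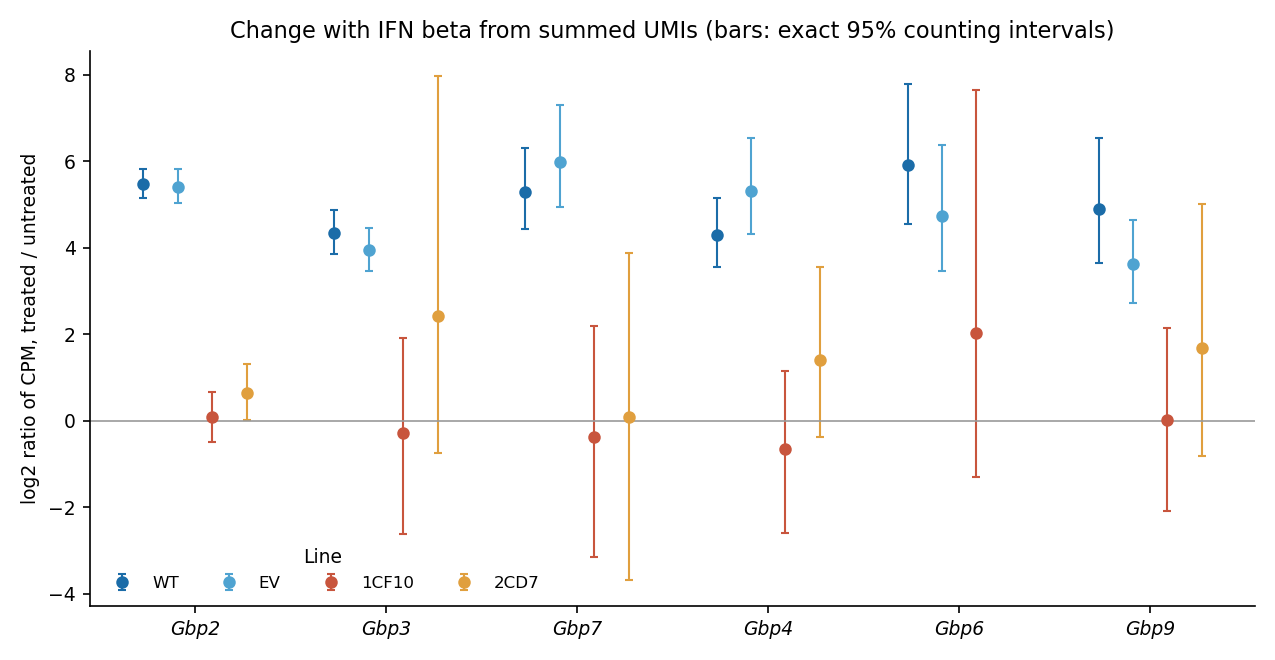
Log2 ratio of treated to untreated CPM from UMIs summed over 3 libraries, for the 6 tested members in each line, with exact 95% counting intervals; Gbp6 in 2CD7 is left out because its untreated libraries held 0 UMIs. The smallest rise in WT and EV is that of Gbp9 in EV, a ratio of 12.3, and each clone interval includes 0 except that of Gbp2 in 2CD7, whose lower bound is a ratio of 1.01.

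The response of the clones minus that of the controls was called lower for 4 members, where 3.68% of tested genes were. Of these, Gbp4, Gbp7 and Gbp9 were tested only because treated control libraries reached the minimum, so the count is a description and is not read against that share. The difference was -5.13 ± 0.33 (log2, SE) for Gbp2, -4.46 ± 1.08 for Gbp4, -5.77 ± 1.26 for Gbp7 and -3.47 ± 1.04 for Gbp9, with edgeR adjusted p = 3.7e-14, 0.00923, 0.00111 and 0.0323. Gbp3 and Gbp6 were not called in this fit, in which untreated 2CD7 held 1 and 0 UMIs of them, and limma-voom called all 6. Without untreated 2CD7 library 3, which held the only untreated 2CD7 UMIs of Gbp4 and Gbp7, edgeR called Gbp2 alone (-5.13, adjusted p = 1.42e-11). Gbp9 also missed the threshold without untreated 1CF10 library 2 (edgeR adjusted p = 0.0531) or 3 (0.106) and without untreated 2CD7 library 2 (0.22). Between treated libraries, scaled to their totals, Gbp2 was 73.1-fold lower in 1CF10 and 66.9-fold lower in 2CD7 than in WT, with no overlap. No difference between the clones in response passed the test: edgeR called 0 members and 0% of all genes in 2CD7 minus 1CF10, with 0 members at an unadjusted p below 0.05 and 0 by DESeq2 or limma-voom. For Gbp2 that difference was 0.57, with a 95% interval from -0.43 to 1.57.

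Untreated cells were then compared, which asks whether members differ before any IFN beta is added. Gbp3 was the member that differed most, with 5 UMIs in untreated 1CF10 and 1 in untreated 2CD7 against 38 in EV and 36 in WT. It reached the level needed for testing in control libraries alone, so its calls here describe the gene and support nothing further. Each clone library (0 to 3 UMIs) lay below each control library (4 to 25 UMIs). Against EV, 1CF10 differed by a log2 value of -3.0 ± 0.93 (edgeR adjusted p = 0.0463) and 2CD7 by a ratio of 0.0249 (exact 95% counting interval 0.000615 to 0.148, edgeR adjusted p = 0.0179). Against WT, 1CF10 differed by -2.99 ± 0.94 (edgeR adjusted p = 0.0313) and 2CD7 by a ratio of 0.0253 (0.000622 to 0.15, edgeR adjusted p = 0.0403). These single comparisons called 1 member lower in 1CF10 and in 2CD7 against EV (6.76% and 4.86% of tested genes), 1 in 1CF10 against WT (11%) and 2 in 2CD7 against WT (2.06%). Each of these 4 Gbp3 calls was lost on leaving out some single library: without untreated WT library 2 Gbp3 stood at -1.75 in 1CF10 and -3.62 in 2CD7 (edgeR adjusted p = 0.134 and 0.0602), and without untreated EV library 3 it stood at -2.51 and -4.39 (0.184 and 0.0749). Leaving out libraries of the clone itself gave differences of -6.73 to -2.53, with p from 0.052 to 0.14.

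Over both clones against both controls, 3 members were called lower, where 4.8% of tested genes were. As Gbp3 and Gbp6 passed the filter through control libraries alone, this count describes the members and is not read against that share. Gbp3 held 6 UMIs against 74, a ratio of 0.0735 (exact 95% counting interval 0.0261 to 0.168) with edgeR adjusted p = 0.00347, and it was called under all 22 alternatives tried. Gbp2 differed by -0.80 ± 0.23 (edgeR adjusted p = 0.0299), with 36 to 51 UMIs per clone group and 58 to 77 per control group. Gbp6, at 1 UMI against 9, had a ratio of 0.101 (0.0023 to 0.727) and adjusted p = 0.0367. The calls of Gbp2 and Gbp6 were lost in 12 of 22 and 15 of 21 alternatives. Untreated WT library 2 and EV library 3, the libraries with more Isg15, were also the highest untreated libraries of their lines for Gbp2: without them and treated 2CD7 library 2, Gbp2 stood at -0.42 (adjusted p = 0.343) and Gbp3 at -3.07 (0.000131). Gbp2 was also called in 2CD7 against WT (-1.24 ± 0.33, edgeR adjusted p = 0.0282) but not in 1CF10 against WT (-0.83 ± 0.31, 0.0534).

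Before treatment, no difference between EV and WT passed the test: edgeR called 0 of the 6 (7.14% of tested genes were lower in EV), with 0 at an unadjusted p below 0.05 and 0 by DESeq2 or limma-voom. For Gbp2 the untreated difference was -0.48 with a 95% interval from -1.08 to 0.13. After IFN beta 2 members were lower in EV, against 9.45% of tested genes, so the count by itself says little. Gbp2 differed by -0.54 ± 0.10 (edgeR adjusted p = 1.24e-04), and each EV library (313 to 349 CPM) lay below each WT library (443 to 514 CPM). Gbp6 differed by -0.92 ± 0.18 (edgeR adjusted p = 7.62e-05), with EV at 15.9 to 20.7 CPM and WT at 32.2 to 36.1. Both calls held under all 15 alternatives. Gbp3 was also lower in each EV library, at 73.1 to 86.2 against 86.9 to 112.5 CPM, but was not called (-0.39 ± 0.21, edgeR adjusted p = 0.214), although limma-voom, the fit of these groups alone, the fit without the filter and that without the 3 libraries that stood apart did call it. Gbp4 (0.03 ± 0.21), Gbp7 (-0.02 ± 0.14) and Gbp9 (-0.20 ± 0.21) overlapped between the lines, with 95% intervals from -0.39 to 0.46, -0.30 to 0.27 and -0.62 to 0.22.

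The responses of EV and WT, each treated minus untreated, gave no call for a tested member (edgeR, 0 called where 0.0171% of genes were lower, 0 at an unadjusted p below 0.05, 0 by DESeq2 or limma-voom). For Gbp2 this difference was -0.06 ± 0.33, for Gbp6 -1.17 ± 0.93 and for Gbp9 -1.23 ± 0.78. Untreated WT and EV held 4 and 5 UMIs of Gbp6 and 5 and 11 of Gbp9. Within the treated controls, the share of GBP UMIs held by Gbp7 was 7.64% to 8.71% in WT and 9.8% to 11.8% in EV, that of Gbp6 4.16% to 4.92% and 2.97% to 3.49%, and that of Gbp2 63.7% to 65.3% and 58.8% to 60.9%. None of these ranges overlapped, nor did those of Gbp4 (4.61% to 6.11% in WT and 6.63% to 8.88% in EV). The ranges of Gbp3 (12.8% to 14.4% and 13.6% to 14.5%) and of Gbp9 (2.37% to 3.2% and 3.05% to 3.4%) did overlap. Shares of 1 sum are not independent of each other, and the treated CPM of Gbp4 and Gbp7 overlapped between the lines. How many of all tested genes separate in this way was not computed, so the separation is a description.

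**Figure D5:**
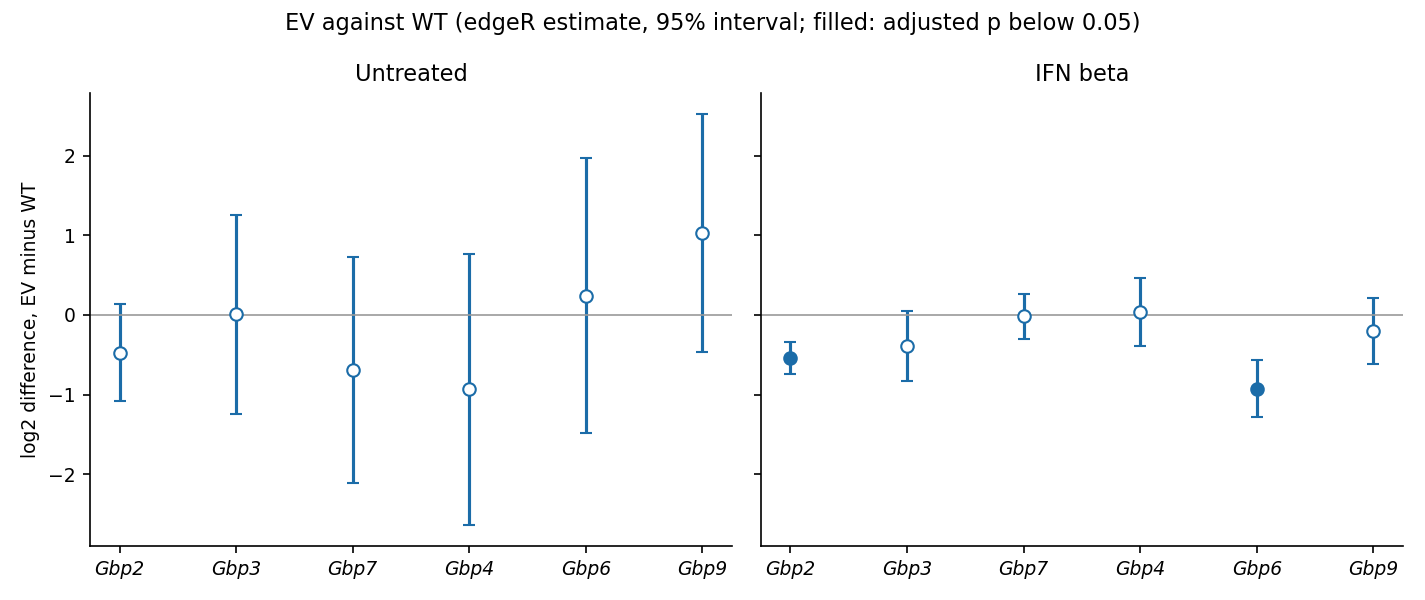
Log2 difference of EV minus WT for the 6 tested members, untreated (left) and after IFN beta (right), as edgeR estimates with 95% intervals; filled points have an adjusted p below 0.05. Gbp2 (-0.54) and Gbp6 (-0.92) are the filled points, both after IFN beta, and the untreated intervals all include 0.

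Genes that act with the GBPs were read from lists, each given as called members of tested members. Of the IRG list, which also holds the very large GTPase Gvin1, 9 of 9 rose in WT and 9 of 9 in EV (5.01% and 3.99% of all tested genes). Their median log2 fold changes were 5.55 and 4.72, against -0.02 and -0.01 over all tested genes. At least Iigp1 and Gm12250 reached the level needed for testing in treated control libraries alone (at most 1.58 and 1.3 CPM elsewhere). These counts and medians therefore describe the list and are not read against all tested genes. Among them the IRG Igtp went from 6.72 ± 2.5 (SD, n = 3) to 469 ± 44 CPM in WT and from 7.16 ± 3.7 to 302 ± 20 in EV. Tgtp2 went from 2.45 ± 1.6 to 131 ± 14 in WT and from 0.674 ± 0.23 to 63.2 ± 9.9 in EV. In the clones edgeR called 0 of the 9 listed genes (0 in 1CF10 and 2 in 2CD7 at an unadjusted p below 0.05). The others named by rule, Iigp1 and Gm12250, were at 116 and 44.5 CPM in treated EV. Treated EV was lower than treated WT in 8 of 9 (9.45% of all tested genes), with Tgtp2 at -1.04 ± 0.13 and Igtp at -0.64 ± 0.14 (edgeR adjusted p = 2.36e-09 and 0.00375).

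Of the receptor and transcription factor genes, 7 of 11 rose in each control (5.01% of all tested genes in WT and 3.99% in EV). Stat2 rose by 3.19 ± 0.16 (log2) in WT and by 3.04 ± 0.16 in EV. Irf1 went from 62.9 ± 11 (SD, n = 3) to 244 ± 6.5 CPM in WT and from 57.5 ± 0.28 to 214 ± 5.9 in EV, and Irf9 from 13.7 ± 7.6 to 64.8 ± 8.0 and from 15.1 ± 1.9 to 60.2 ± 4.5. In the clones edgeR called 0 of the 11 (0 in 1CF10 and 1 in 2CD7 at an unadjusted p below 0.05). Untreated clones were lower than untreated controls in 4 of the 11 (4.8% of all tested genes), among them Irf7 (-3.15 ± 0.49), Irf9 (-2.46 ± 0.24) and Stat2 (-0.88 ± 0.18), with edgeR adjusted p = 0.00043, 2.91e-11 and 0.000375. Irf1 was at -0.02 ± 0.08 in that comparison (adjusted p = 0.935). Untreated clone libraries held at most 2.86 CPM of Irf7 and 3.57 CPM of Irf9, below the level needed for testing. The count of 4 therefore describes the list and is not read against the 4.8%.

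The other lists had some or no members called, against the same 5.01% and 3.99% of all tested genes. Of the inflammasome and pyroptosis genes 3 of 6 tested rose in each control: Zbp1, which senses nucleic acids in the Z form (4.88 ± 0.36 in WT and 4.95 ± 0.44 in EV), Casp4, an inflammatory caspase (2.51 ± 0.18 in WT and 2.02 ± 0.18 in EV), and Gsdmd, which encodes the pore-forming gasdermin D (0.44 ± 0.08 and 0.42 ± 0.09). Of the ubiquitin and damaged-vacuole coat genes 3 of 7 rose in each control, with Trim21 at 3.62 ± 0.26 and 3.59 ± 0.29, Rnf213 at 2.37 ± 0.16 and 2.66 ± 0.17 and Lgals8, a galectin that binds damaged vacuoles, at 1.31 ± 0.13 and 1.23 ± 0.13. Zbp1 and Trim21 reached the level needed for testing in treated control libraries alone (at most 2.54 and 3.55 CPM elsewhere). The counts of both lists therefore describe their members and are not read against those shares. Of the autophagy conjugation genes, which help GBPs reach vacuoles, edgeR called 0 of 11 in either control (2 in WT and 1 in EV at an unadjusted p below 0.05), with Gabarap at 0.10 ± 0.07 and Map1lc3b at 0.13 ± 0.07 in WT. The 5 tested prenylation genes, whose enzymes attach the lipid that some GBPs carry, and the 2 tested atlastins, relatives of the GBPs at the endoplasmic reticulum, gave 0 edgeR calls in either control. At an unadjusted p below 0.05 these were 0 prenylation genes and 1 atlastin in each control, Atl2 (0.55 ± 0.18 in WT and -0.51 ± 0.19 in EV). Rce1 was at 0.02 ± 0.12 and Fnta at -0.0021 ± 0.14 in WT.

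Over the 8 group means, the tested genes outside the family whose log2(CPM + 1) lay closest to the summed GBP level were Igtp (r = 0.998), Dtx3l, Mpeg1, Eif2ak2 and Ifi204 (r = 0.996 each), and 44 genes had r above 0.99. These 8 points share the same libraries and the high treated controls, so the values are a description. Treated levels of the 5 genes were 27.3 to 469 CPM in WT and 20.6 to 302 CPM in EV, against 752.5 and 556.9 CPM for the GBP sum.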

How the data were processed

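The study measured 24 libraries of total RNA (20 ng each, plated at 50000 cells per well) with a 3′ protocol using an 8 bp sample index, a 10 bp UMI and reads of 19 and 101 bp, per the labels' protocols. The deposited values are UMI counts per gene that the authors did not normalize. Tools named in the submitters' processing notes are cutadapt 3.0, limma 3.50.0, edgeR 3.36.0 and R (3.6.2 and 4.1.2), with GRCm38 and mm10 as builds. Which aligner was used is not given in these sources. All 24 libraries were fitted together with edgeR 4.0.16 (R 4.3.3): filterByExpr (minimum count 10, minimum total 15), TMM, quasi-likelihood F test on 8 group means, Benjamini-Hochberg adjustment over 11698 genes; SE is the log2 fold change divided by the square root of F. The code was tested on simulated data. Counting intervals are exact at 95%, and they and the floor of 3 UMIs per group cover counting error alone. Depth was 1972192 to 3097331 UMIs per library, with a median of 2512964.5. Alternatives were RLE factors, DESeq2 1.42.0, limma-voom (limma 3.58.1), no filter, a minimum count of 30, a replicate block, thinning to 1972192 UMIs, the compared groups alone and each replicate left out; pooling the lines and leaving out 3 libraries together were chosen after seeing the data. Annotation is GENCODE M21 and sequences are from RefSeq. Named beside the members were Gbp2b, Irf1, Ifnar1, per list up to 4 tested genes with the largest mean change called in WT and EV (else the 2 with most UMIs), and the 5 genes closest to the GBP sum. The members and lists were chosen with earlier results of these data known. Some genes of the lists are not reported here.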

Additional observations from a re-analysis of the deposited data

Results flagged for a closer look

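The response to IFN beta differed between the clones and the controls in a direct test of that difference for 4 genes, of which Gbp4, Gbp7 and Gbp9 were tested only because treated control libraries reached the minimum level. The response of the clones minus that of the controls was -5.13 for Gbp2, -4.46 for Gbp4, -5.77 for Gbp7 and -3.47 for Gbp9 (log2, edgeR). The controls had gains of 4.33 and 5.29 for Gbp4 and of 5.29 and 5.96 for Gbp7 in WT and EV, against 8 and 5 Gbp4 UMIs and 4 and 3 Gbp7 UMIs in untreated and treated 1CF10, and against 4 and 10 Gbp4 UMIs and 2 and 2 Gbp7 UMIs in untreated and treated 2CD7. Without untreated 2CD7 library 3, 1 of the 4 calls was left, that of Gbp2.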

How the results depend on the processing

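Calls of the IFN beta response of the controls held at 6 members or more under all alternatives, and the clones had 0. As Gbp4, Gbp6, Gbp7 and Gbp9 passed the filter through treated control libraries alone, these counts describe the members and support nothing further. Whether the replicate numbers pair the samples was not settled. The mean correlation of deviations was 0.00967 (-0.0796 to 0.0833) for the same number and -0.00483 (-0.149 to 0.138) for others. Of 24 libraries, 13 were closest to their own number. A replicate block left 0 members called in untreated 1CF10 minus EV and 1 in untreated 2CD7 minus WT. Thinning and the fit of the compared groups alone both left 0 called in 1CF10 minus EV, 2CD7 minus EV and 1CF10 minus WT, and 1 in 2CD7 minus WT; in the latter fit Gbp3 did not pass the filter in these 4 comparisons and was not tested. limma-voom called 1 in 2CD7 minus WT and 1 over both clones; DESeq2 and no filter called 2 in 1CF10 minus WT. Without the 3 libraries that stood apart the counts were 0 in 1CF10 minus WT, 1 in 2CD7 minus WT and 1 over both clones, and pooling the lines gave 1. Leaving out single replicates gave 0 to 1 in 1CF10 minus EV, 0 to 2 in 2CD7 minus EV, 0 to 2 in 1CF10 minus WT, 0 to 2 in 2CD7 minus WT, 1 to 3 over both clones, and 1 to 4 for the response of clones minus controls. The cause was not tested.

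Signs turned for differences that were not called. In the response of EV minus WT, Gbp2 was 0.090 after thinning and -0.59 to 0.27 without single replicates, and Gbp3 -1.65 to 0.088. In treated EV minus WT, Gbp4 was -0.16 to 0.14 and Gbp7 -0.088 to 0.032 without single replicates. Over both clones, leaving out single replicates gave -1.07 to 1.80 for Gbp3, -0.14 to 2.11 for Gbp4 and -1.497 to 1.17 for Gbp7, and leaving out the 3 libraries gave -1.07 for Gbp3 and -0.14 for Gbp4. In 1CF10, Gbp2 was -0.10 to 0.26 and Gbp3 -0.73 to 0.38 without single replicates, and Gbp3 was 0.041 with limma-voom. In 2CD7, Gbp3 was -1.85 to 3.89 without single replicates and -1.86 without the 3 libraries. Of 1023 single-gene differences under alternatives, 921 kept direction and call, and of 269 counts 206 were equal to the reported one. With 0 to 7 UMIs per clone library, the intervals for Gbp3 to Gbp11 in the clones are wide.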
